A study of Mus musculus with 10 samples.

Results

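The genes described here are 113 genes of vesicle trafficking, the transport of membrane and cargo between the compartments of a cell, measured in mouse macrophages on spotted cDNA arrays. They were taken by symbol from the platform's annotation and cover Rab and Arf GTPases, sorting nexins, Vps proteins, syntaxins, Vamp and Snap proteins, Sec proteins, coatomer subunits, adaptor subunits and clathrin. They were 113 of the 6795 genes with 1 symbol on the array and were read by 126 of the 7486 features with 1 symbol. All 113 were matched to the reference gene table, and 0 of their symbols had changed. By role they were 32 Rab GTPases, 2 Rab effectors, 3 Arf GTPases, 17 clathrin and adaptor subunits, 3 subunits of COPI, 5 of COPII, 7 of the machinery that moves proteins into the endoplasmic reticulum, 20 SNAREs, 11 Vps proteins, 12 sorting nexins and the COPII-binding protein Sec23ip. Snap91, counted with the SNAREs by its symbol, is a clathrin assembly protein.

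As background, a coat of clathrin and adaptors, COPI or COPII shapes each transport vesicle, and Arf GTPases recruit the COPI and many clathrin coats. Rab GTPases then give each compartment its identity and bring in tethers, and SNAREs on vesicle and target pair to fuse the membranes. Retromer, built on Vps35 and Vps26 and working with sorting nexins, returns receptors from endosomes. Macrophages are known for heavy use of these routes, since they take up and digest particles through endosomes and lysosomes and, once activated, secrete cytokines made at the endoplasmic reticulum.

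The study compared peritoneal exudate cells (PEC), labelled as peritoneal macrophages, with tumour-associated macrophages (TAM), which were collected 3 weeks after a tumour had been implanted. All came from C57/6N black mice aged 8 weeks and were grown as adherent cells, untreated or with 100 ng/mL lipopolysaccharide (LPS), a bacterial product that activates macrophages, for 4 hours. The 10 arrays had 2 channels each and made 4 direct comparisons. Untreated TAM were set against untreated PEC on 4 arrays (TAM-8, TAM-3, TAM-2R, TAM-b), and PEC with LPS against untreated PEC on 2 (PEC1, PEC2). TAM with LPS were set against untreated TAM on 2 arrays (TAM-trial, TAM-16) and against PEC with LPS on 2 (TAM1, TAM7). The labels used here name neither the tumour nor the sort or gate, if any, and adherence is the only selection they give. Whether the arrays of a comparison represent different mice or cultures is not stated there, and a p-value here measures array-to-array spread, possibly of technical origin.

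Each value is a log2 ratio of the first-named condition to the other, so 1 stands for a 2-fold higher signal and 0 for equal signals. Levels in a single condition cannot be read from such ratios, and in these bulk cultures fewer cells of a type cannot be told apart from less RNA per cell. Dyes are not named in the labels, and the direction of every ratio is likely and not certain; it was anchored on 21 genes known to be induced by LPS, whose median log2 ratio was 2.12 on PEC1 (19 above 0) and 3.44 on PEC2 (21 above 0). TAM-2R and TAM1 had exchanged channels per the labels and were turned; read the other way, their values change sign, and so does each mean of TAM against PEC with LPS that TAM1 dominates. A gene given below as on 1 side of 0 on all 4 untreated arrays is then no longer so. Over the 113 genes, arrays of 1 comparison were weakly alike, with Pearson's r of 0.36 for PEC1 and PEC2, 0.34 for TAM1 and TAM7, 0.06 for TAM-trial and TAM-16, and -0.09 to 0.34 among the 4 arrays of untreated TAM and PEC. These coefficients are across genes, which are not independent, and describe the arrays only. The place of a feature on the array accounted for 4.4% (TAM1) to 49.1% (TAM-b) of the variance of all features. The arrays came from 3 prints: PEC1 alone on one, TAM-8, TAM7 and TAM-trial on another, and the other 6 on the third.

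Under LPS, PEC had ratios above 1 on both arrays for the coat-recruiting GTPases Arf1 (1.87 and 1.72) and Arf4 (1.41 and 1.33), the exocytic SNARE Snap23 (1.43 and 1.26) and the translocon subunit Sec61b (1.43 and 1.03). The sorting nexins Snx24 (4.18 and 2.58) and Snx15 (1.004 and 1.117) were above 1 on both as well. With LPS in both cell types, TAM had ratios below -1 on both arrays for Arf1, the late endosome GTPase Rab7, the sorting nexin Snx12 and the COPII subunit Sec13. The syntaxins Stx4a, Stx8 and Stx11 were below -1 on both as well. Above 1 on both of these arrays were the sorting nexin Snx30 (4.17 and 1.68) and the translocation gene Sec62 (1.29 and 1.75). The shares of all features beyond these limits were not counted. None of the 113 genes passed the test in any comparison, at a limma p adjusted over all 8905 genes and features under 0.05. The share of all features tested that passed was 0.46% for untreated TAM against PEC, 0.0112% for LPS in PEC, 0% for LPS in TAM, 0.0674% for TAM against PEC with LPS, and 0% for the difference between the LPS responses. The smallest limma adjusted p among the genes was 0.22, 0.39, 0.83, 0.14 and 0.72 in these 5. At an unadjusted limma p under 0.05 there were 14 genes in untreated TAM against PEC, 12.4% of 113 against 14.3% of all features. Of these, 5 lay above 0 and 9 below, where 6.57% and 7.74% of all features did. LPS in PEC gave 10 (8.85% against 8.14%), with 9 above 0 and 1 below (all features 5.73% and 2.41%). LPS in TAM gave 6 (5.31% against 5.58%), with 1 above and 5 below (all features 0.898% and 4.68%). TAM against PEC with LPS gave 16 (14.2% against 8.99%), with 1 above and 15 below, where all features had 2.08% and 6.92%. The difference of the LPS responses gave 8, all below 0 (7.08%, against 6.87% of all features, 5.97% below 0). The shares of the genes were near those of all features in each of these except TAM against PEC with LPS, where the count below 0 was the higher. Several of these counts moved when 1 array was left out, which also changes the estimate of spread that all comparisons share. The 16 became 4 without TAM1 and 10 without any 1 of TAM7, PEC1 and PEC2, and the 10 of LPS in PEC became 3 without PEC1 and 5 without PEC2. The 14 became 8 without TAM-b, and the 6 became 2 without TAM-trial and 10 without TAM-16. The 8 became 2 without PEC1, 3 without TAM-trial and 15 without TAM-16. The counts were lower in fits that took the arrays' print into account. With print as a block they were 7, 1, 1 and 5 in the 4 comparisons, and on the 6 arrays of the third print alone 3, 1, 1 and 5, with 0 genes past the adjusted threshold in both. On that print each LPS comparison has 1 array, so its value is that array's own. With print as a block, a term of its own takes up PEC1, so LPS in PEC has only PEC2. These fits have 3 (block) and 2 (1 print) residual degrees of freedom, against 6. An effect of print itself on the counts was therefore not tested. As a check of the arrays against each other, the difference of the LPS responses, taken with the untreated comparison, should equal TAM against PEC with LPS; this loop closure had a median of -0.26 over the genes (all features -0.18), with 5 genes at an unadjusted limma p under 0.05, all below 0 (4.42% against 2.67%, and 2.06% below 0), 47 of 113 above 0 (43.3% of all features) and 0 past the adjusted threshold (0% of all features). Each gene named below is therefore given as a measured value without a call.

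Taken over the genes as a group, LPS in PEC had the median farthest from 0 of the 4 direct comparisons. The 113 log2 ratios had a median of 0.25 there, against -0.04 for all features, and 73 of 113 lay above 0 (64.6% against 48.1%). PEC1 carried more of this than PEC2, with a median of 0.46 and 79 genes above 0 against 0.10 and 61. On both arrays 51 genes lay above 0 and 24 below, where 31.4% and 32.5% of all features did so. In untreated TAM against PEC the median was -0.07 (all features -0.02), with 52 genes above 0 (48.7% of all features were). For LPS in TAM it was -0.15 (all -0.13), with 51 above 0 (43.2%), and for TAM against PEC with LPS -0.03 (all 0.08), with 50 above 0 (55.7%). The difference of the LPS responses, TAM minus PEC, had a median of -0.39 against -0.11 for all features, and 77 of 113 were below 0 and 36 above (44.7% of all features above). That difference shares its PEC arrays with the comparison of LPS in PEC, so it repeats their values in part.

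**Figure D1:**
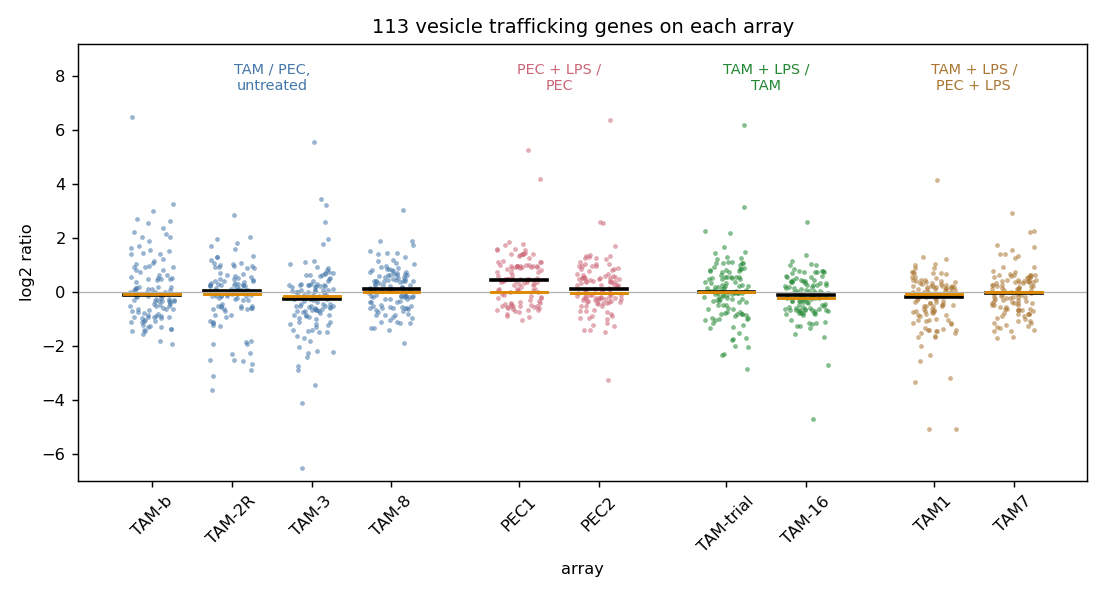
Log2 ratio of each of the 113 genes (points) on each of the 10 arrays, grouped by comparison; the horizontal axis names the arrays, black lines are the medians of the genes and orange lines the medians of all features. The genes' median was highest on PEC1 (0.46), and single genes reached 6.48 on TAM-b and -6.52 on TAM-3.

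Markers of cell types also had ratios away from 0, although none passed the test (smallest limma adjusted p 0.12). Of 12 macrophage markers 5 were measured, and their median log2 ratio was -0.93 in untreated TAM against PEC (1 of 5 above 0) and -1.72 with LPS (0 of 5 above 0); the values per array ranged from -2.34 to -0.28 and from -2.01 to -1.49. Lyz2, the macrophage lysozyme, stood at -1.55 and -2.71, and Cd68, a lysosomal glycoprotein of macrophages, at -1.74 and -3.50. Fcgr1, an Fc receptor, was at the other end of the markers untreated, at 1.10, and at -1.12 with LPS. For LPS in PEC the macrophage median was 0.77 (4 of 5 above 0; 0.53 on PEC1 and 1.24 on PEC2), and for the difference of the LPS responses it was -1.71 (0 of 5 above 0), the same sides of 0 as the medians of the 113 genes there. Fibroblast markers had a median of 1.27 (5 of 5 above 0; medians per array -0.75 to 2.80) and neutrophil markers one of 0.98 (5 of 6 above 0; 0.31 to 2.15) in untreated TAM against PEC. With LPS these were 0.83 (4 of 5) and 0.76 (5 of 6). On TAM-trial, LPS against untreated TAM, the macrophage median was -2.50 (0 of 5 above 0), and on TAM-16 it was 0.40. The medians of markers of endothelium, of T and NK cells, of B and plasma cells, and of epithelium and mesothelium in untreated TAM against PEC were 0.13, -0.09, -0.07 and 0.42. The part of cell content in the values given here was not tested.

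The Arf GTPases were the role with the highest median under LPS in PEC among roles of 3 or more genes. Arf1, which recruits COPI and clathrin adaptors at the Golgi, read 1.87 on PEC1 and 1.72 on PEC2. Both arrays stood well above 0 and close together, at a mean of 1.80 ± 0.11 (SD, n = 2), a 3.47-fold ratio with a standard error of 0.47 and a limma adjusted p of 0.39. Arf4, a Golgi and endosome Arf, read 1.41 and 1.33 (mean 1.37 ± 0.06, limma adjusted p 0.43), and each of its 2 features lay between 1.08 and 1.71. Arf2 was lower, at 0.20 and 0.53. In TAM the LPS arrays did not point one way for Arf1, with -1.03 on TAM-trial and 0.51 on TAM-16, while Arf4 read 0.09 and 0.47. The difference of the LPS responses for Arf1, TAM minus PEC, was -2.05 with a standard error of 0.66 (limma adjusted p 0.72).

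With LPS in both cell types, Arf1 read -1.61 on TAM1 and -1.16 on TAM7, a mean of -1.39 (limma adjusted p 0.39). Both values were thus lower in TAM as the arrays are read here, and the mean changes sign with TAM1 read the other way. Arf4 read -1.39 and -0.63, but its features split on TAM7 into 0.87 and -2.13, so that mean joins values on both sides of 0. The same split was seen on TAM-8, of the same print as TAM7, at 1.90 and -2.17. Untreated, Arf1 ranged from -0.48 (TAM-b) to 0.48 (TAM-3) and so showed no common side. The comparison of LPS in PEC and that of TAM against PEC with LPS share the condition of PEC with LPS.

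The COPI coat, which carries cargo back from the Golgi to the endoplasmic reticulum, was measured by 3 subunits. Copa read 0.40 and 1.27 under LPS in PEC and -0.79 and -1.29 in TAM against PEC with LPS, where the mean was -1.04 ± 0.35 (limma adjusted p 0.52). Copb2 read 0.90 and 0.60 under LPS in PEC. In untreated TAM against PEC it stood at 3.28 on TAM-b and between 0.24 and 0.26 on the other 3 arrays, so TAM-b set its mean of 1.01. Copz2 lay below 0 on both PEC arrays, at -0.33 and -0.87.

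COPII shapes the vesicles that leave the endoplasmic reticulum. Of its 5 subunits, 4 lay above 0 on both PEC arrays with LPS, where 31.4% of all features did. Sec13, part of the outer cage, read 1.42 and 0.62 there, -1.38 and -1.66 in TAM against PEC with LPS, and -2.85 and -0.03 in TAM with LPS against TAM. The last pair stood far apart for 2 arrays of 1 comparison, so its mean of -1.44 rests on TAM-trial. Sec23b, of the inner coat, read 1.02 and 0.41 under LPS in PEC and -0.52 and -1.07 in TAM against PEC with LPS. Sec31a, the other cage subunit, read 0.47 and 0.46 under LPS in PEC.

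Sec23a, the paralogue of Sec23b, had a mean of 1.96 ± 1.05 in untreated TAM against PEC (SD, n = 4; limma adjusted p 0.24), the highest of the genes as TAM-2R is read here. With TAM-2R read the other way it was 0.53, and Rab11fip4 was then the highest at 1.96. Its 2 features did not give the same picture. One read -0.12, 0.13, 0.40 and 0.84 on TAM-b, TAM-2R, TAM-3 and then TAM-8, and the other 1.12, 5.56, 4.78 and 2.94. The second feature also carried the value of -6.69 on TAM1. Several of these are among the values on fixed steps described further on, and without those the mean was 0.58.

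The translocon moves new secretory and membrane proteins into the endoplasmic reticulum. Sec61b, its beta subunit, was above 0 on all 4 arrays of untreated TAM against PEC, at 0.54, 0.93, 1.13 and 0.93. The mean was 0.88 ± 0.25 (SD, n = 4), a 1.84-fold ratio with a standard error of 0.30 and a limma adjusted p of 0.25. Of all features 8.77% lay above 0 on all 4. Under LPS in PEC it read 1.43 and 1.03 (mean 1.23, limma adjusted p 0.45), and in TAM with LPS against TAM -1.21 and -0.12. The difference between these LPS responses was -1.89 with a standard error of 0.60 (limma adjusted p 0.72).

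Of the 7 genes of this role, 4 had a mean above 0 in untreated TAM against PEC and 3 below (48.7% of all features above). Sec11c, of the signal peptidase, was also above 0 on all 4 arrays, at 1.03, 0.42, 0.10 and 0.97 (mean 0.63 ± 0.45, limma adjusted p 0.41). Sec61a2 had a mean of 0.91 and was above 0 on 3 of the 4. Sec61a1, the channel-forming alpha subunit, lay below 0 on all 4 arrays of untreated TAM against PEC, from -3.44 (TAM-3) to -0.34 (TAM-b). Its mean of -1.31 depended on TAM-3 and was -0.84, without 1 sign on every array, with TAM-2R read the other way. In TAM with LPS against TAM it read -1.03 on TAM-trial and -4.70 on TAM-16, the latter on a fixed step. Sec61g, the gamma subunit, read 1.43 and -0.12 under LPS in PEC and -1.16 and -0.88 in TAM against PEC with LPS. Sec62 and Sec63 assist translocation; Sec62 read 1.29 and 1.75 in TAM against PEC with LPS, and Sec63 -0.51 and -1.25 under LPS in PEC.

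**Figure D2:**
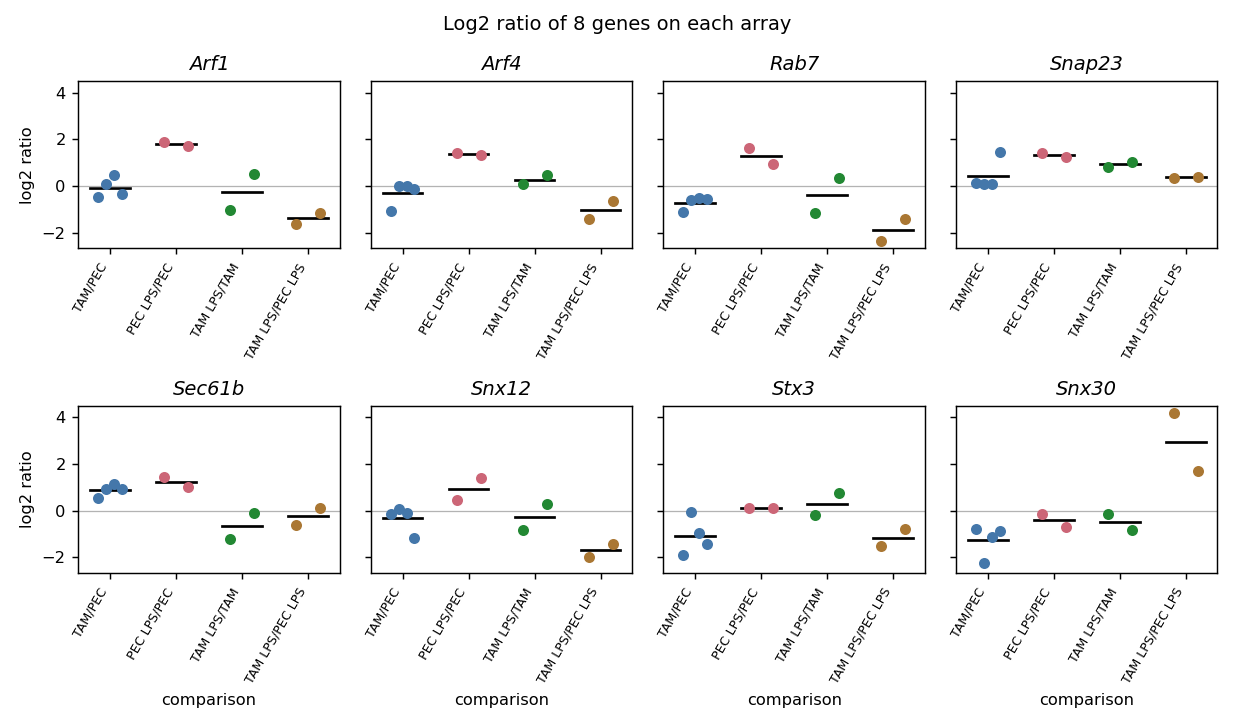
Log2 ratio of 8 genes, chosen after their values were seen, on each array (points) by comparison on the horizontal axis, with the mean as a black line. Arf1, Arf4, Snap23 and Sec61b lay above 1 on both PEC arrays with LPS. Snx30 lay below 0 on all 4 arrays of untreated TAM against PEC and above 1 on both of TAM against PEC with LPS.

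Among the Rab GTPases, 10 of 32 lay above 0 and 8 below 0 on both arrays of LPS in PEC (all features 31.4% and 32.5%). Their median was 0.04. Rab7, which directs late endosomes and phagosomes to lysosomes, read 1.61 and 0.96 there (mean 1.29 ± 0.46, limma adjusted p 0.48). In TAM against PEC with LPS it read -2.34 on TAM1 and -1.43 on TAM7, a mean of -1.89 with a standard error of 0.47 and a limma adjusted p of 0.24. Untreated, it was below 0 on all 4 arrays, at -1.12, -0.61, -0.53 and -0.58. Its arrays of TAM with LPS against TAM were on both sides of 0, at -1.14 and 0.33. Rab7 was thus lower in TAM on all 6 arrays that set TAM against PEC. The median of the 5 macrophage markers was below 0 on each of these arrays. Above 0 were 2 of 5 markers on TAM-b and on TAM-2R, 1 of 5 on TAM-3 and on TAM-8, and 0 of 5 on TAM1 and on TAM7. A link with Rab7 was not tested. In a fit of the 4 conditions to all 10 arrays at once, the value of Rab7 with LPS was -2.03 (limma adjusted p 0.030). In that fit 137 of all features passed the threshold. In the fit used elsewhere, the value with LPS was 0.46 with TAM1 read the other way.

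Rab14 and Rab2a also had both PEC values near 1. Rab14, of early endosomes and the Golgi, read 0.95 and 1.03 under LPS, and Rab2a, of the route between endoplasmic reticulum and Golgi, 0.92 and 0.90. In TAM with LPS against TAM, Rab2a read -1.29 and -0.12, and the difference of the responses was -1.62 with a standard error of 0.58 (limma adjusted p 0.72). In TAM against PEC with LPS, Rab2a read -0.90 and -0.88. Rab11a, of recycling endosomes, read 0.47 and -0.34 under LPS in PEC. In TAM with LPS against TAM it had a mean of -1.06, but on TAM-trial its 2 features read -0.44 and -3.14.

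Rab30, a Golgi Rab, was below 0 on all 4 untreated arrays, at -0.95, -0.28, -0.89 and -0.86 (mean -0.74 ± 0.31, limma adjusted p 0.28). Rab24, linked to autophagy, was above 0 on all 4, from 0.23 to 1.80. Of all features 10.8% were below 0 on all 4 arrays and 8.77% above, and of the 113 genes 17 and 14 were. Rab3a, of regulated exocytosis, read -0.56 and -3.26 under LPS in PEC, and Rab4a, of fast recycling, -0.45 and -1.40. Both pairs were below 0 but far apart, and the mean of Rab3a (-1.91, limma adjusted p 0.50) rested on PEC2. Rab23 read -0.68 and -0.998, with both of its features below 0 on both arrays.

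Several of the other Rabs had a single far value. Rab9, of transport from late endosomes to the Golgi, read 5.28 on PEC1 and -0.35 on PEC2, and -5.07 on TAM1 and 0.55 on TAM7. Rab34 also read -5.07 on TAM1, the same value as Rab9, and 0.23 on TAM7. Rab13, of cell junctions, read -3.63 on TAM-2R and 3.25 on TAM-3 within 1 comparison. Rab33a read 1.47 and 2.59 in TAM with LPS against TAM, the highest mean there among genes with 1 sign (2.03 ± 0.79, limma adjusted p 0.83). Rab11fip4, an effector of Rab11, read 0.95 and 6.37 under LPS in PEC, and its relative Rab11fip3 0.90 and 2.27 in TAM against PEC with LPS.

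Clathrin is built of heavy and light chains, and of these the light chains Clta and Cltb were measured. Clta read 0.98 and 1.30 under LPS in PEC, a mean of 1.14 ± 0.23 (limma adjusted p 0.52). It was also above 0 on all 4 untreated TAM arrays, from 0.09 to 0.82, and read -1.67 and -0.26 in TAM against PEC with LPS. Cltb read -0.52 and -0.82 under LPS in PEC, on the other side of 0. In TAM with LPS against TAM, Cltb read 3.15 on TAM-trial and 0.23 on TAM-16. The 3.15 matched a fixed step, of which TAM-trial showed a small excess (see further on).

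The adaptor complexes differ in place of work: the first at the Golgi and endosomes, the second at the plasma membrane, the third on the way to lysosome-related organelles. Ap2b1, the beta subunit of the plasma membrane adaptor, read 2.55, 1.21, 0.30 and 1.08 in untreated TAM against PEC (mean 1.28 ± 0.94, limma adjusted p 0.22). Ap3s1, a small subunit of the third, read -1.83, -0.29, -1.18 and -1.88 (mean -1.29 ± 0.74, limma adjusted p 0.22). Both genes kept 1 side of 0 on all 4 arrays. Ap3s1 was also below 0 in TAM with LPS against TAM, at -1.98 and -0.58, and in TAM against PEC with LPS, at -0.75 and -1.24. Ap1g1, the gamma subunit of the first, read -0.34, -1.15, -0.85 and -0.64 (mean -0.75 ± 0.34, limma adjusted p 0.31).

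Some subunits of 1 complex had like values in TAM against PEC with LPS and others did not. Of the first complex, Ap1b1, Ap1m1 and Ap1s1 lay below 0 on both arrays, with means of -0.83, -1.04 and -0.84, while Ap1g1 had a mean of -0.08. Ap2a1 read -1.43 and -0.82 in TAM against PEC with LPS (mean -1.13 ± 0.43, limma adjusted p 0.48), while Ap2b1 read -0.12 and 0.26. Ap2a2 read -2.56 and -0.35 there; its other values ran from -6.52 (TAM-3) to 1.76 (PEC1), 2 of them on fixed steps. Of the 17 clathrin and adaptor genes, 8 were below 0 on both arrays of TAM against PEC with LPS and 1 was above, against 28.2% and 32.9% of all features.

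SNAREs of the plasma membrane and endosomes included Snap23, which macrophages use for exocytosis and phagosome formation. It read 1.43 and 1.26 under LPS in PEC, a mean of 1.35 ± 0.12 (limma adjusted p 0.45). In TAM with LPS against TAM it read 0.81 and 1.04 (mean 0.93), so all 4 arrays of LPS against no LPS lay above 0. In TAM against PEC with LPS it read 0.36 and 0.39. Untreated, it was 1.44 on TAM-8 and between 0.09 and 0.15 on the other 3 arrays.

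Of the 20 SNAREs, 12 had a mean below 0 and 8 above in TAM against PEC, both untreated and with LPS, where 48.7% and 55.7% of all features lay above 0. The 9 syntaxins among them had 7 and 8 below 0. Stx3, a plasma membrane and granule syntaxin, read -1.91, -0.06, -0.94 and -1.42 untreated (mean -1.08 ± 0.79, limma adjusted p 0.24) and -1.52 and -0.80 with LPS. Stx12, of endosomes, read -0.64, -0.51, -0.84 and -0.58 untreated, the narrowest of these sets (mean -0.64 ± 0.14, limma adjusted p 0.34). Stx4a, of the plasma membrane, read -1.34 and -1.13 with LPS (limma adjusted p 0.48), but untreated it ranged from -1.26 to 0.13. Stx8, of late endosomes, read -1.09 and -1.69 with LPS, and Stx7, its partner, 0.40 and -0.54. Stx11, an immune-cell SNARE of granule release, read 1.56 and 0.85 under LPS in PEC, -1.02 and -1.20 in TAM against PEC with LPS, and from -2.65 to 1.89 untreated. Stx1a, best known from synapses, read 0.20 and 2.23 in TAM against PEC with LPS, the latter on TAM7.

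The Vamp proteins are the SNAREs carried by vesicles. Vamp3, of recycling endosomes and a known partner in cytokine release, read 0.50 and 0.64 under LPS in PEC and -1.18 and -0.94 in TAM against PEC with LPS (mean -1.06 ± 0.16, limma adjusted p 0.48). Vamp2 read 0.49, 0.55, 0.25 and 0.87 untreated but -0.52 and -1.46 with LPS. These 6 arrays put Vamp2 higher in TAM untreated and lower with LPS; the difference, a contrast added after the data had been seen, was -1.53 with a standard error of 0.50 and a limma adjusted p of 0.70. Vamp8, of late endosome and granule fusion, read 0.97 and 1.03 under LPS in PEC, and in TAM against PEC it was above 0 on all 4 untreated arrays (0.15 to 1.08) but -1.52 on TAM1 and 0.51 on TAM7. Among the 20 SNAREs, 11 lay above 0 and 2 below on both PEC arrays with LPS, where 31.4% and 32.5% of all features did.

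Sorting nexins bind endosomal membranes and bend them into tubules. Snx30 had the smallest adjusted p of the genes in any comparison. It read -0.80, -2.25, -1.11 and -0.86 untreated (mean -1.25 ± 0.68, limma adjusted p 0.25) and 4.17 on TAM1 and 1.68 on TAM7 with LPS (mean 2.92 ± 1.76, limma adjusted p 0.14). As the arrays are read here it was lower in TAM on all 4 untreated arrays and higher on both with LPS, where TAM1 stood far above TAM7. The difference, added after the data had been seen, was 4.18 with a standard error of 0.75 and a limma adjusted p of 0.42, where 0% of all features passed. Its LPS responses were -0.14 and -0.70 in PEC and -0.12 and -0.83 in TAM, all 4 below 0. These and the untreated values do not add up to the value measured with LPS: its loop closure was -4.24 with a standard error of 1.14 (limma adjusted p 0.9999), the smallest p of the genes in that check. With arrays centred and scaled to 1 spread, its value with LPS was 3.63 and its limma adjusted p 0.040, passed by 81 of all features. With the exchanged arrays read the other way, it was -1.24.

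The other sorting nexins included several in the opposite direction with LPS. Snx12 read 0.46 and 1.39 under LPS in PEC and -1.99 and -1.41 in TAM against PEC with LPS (mean -1.70 ± 0.41, limma adjusted p 0.29; 0.29 as a log2 ratio with TAM1 read the other way). Snx3, which guides retromer cargo, read 1.12 and 0.97 under LPS in PEC and -1.40 and -0.997 in TAM against PEC with LPS. Snx4, of recycling to the cell surface, was below 0 on all 6 arrays of TAM against PEC, at -1.44, -1.06, -0.72 and -0.36 untreated (mean -0.89, limma adjusted p 0.27) and -0.38 and -1.34 with LPS. Its LPS responses were 1.44 and 0.48 in PEC and -1.01 and -0.65 in TAM, a difference of -1.78 with a standard error of 0.64 (limma adjusted p 0.72). Snx24 read 4.18 and 2.58 under LPS in PEC (mean 3.38 ± 1.13, limma adjusted p 0.45) and -3.20 and 0.20 in TAM against PEC with LPS. Snx32 read -0.54 and -0.96 under LPS in PEC, and Snx5 had values on both sides of 0 in each of the 4 comparisons.

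The retromer subunits Vps35 and Vps26a were below 0 on both arrays of TAM with LPS against TAM. Vps35 read -1.73 and -1.14 (mean -1.43 ± 0.42, limma adjusted p 0.83) and Vps26a -2.04 and -0.61 (mean -1.32 ± 1.01, limma adjusted p 0.83). Under LPS in PEC they parted, with -0.46 and -0.17 for Vps35 and 0.46 and 0.54 for Vps26a. Vps35 was also at -1.10, -2.04 and -1.16 on 3 untreated TAM arrays but at 0.27 on TAM-2R. Of all features 33.7% were below 0 on both arrays of LPS in TAM, and of the 11 Vps genes 6 were. The macrophage markers, at a median of -2.50 on TAM-trial and 0.40 on TAM-16, differed between these arrays as well.

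Several other Vps genes belong to tethers or to the ESCRT machinery, which sorts membrane proteins into late endosomes. Vps25, of ESCRT, read 1.36 and 0.66 under LPS in PEC (mean 1.01, limma adjusted p 0.60) and -1.13 and -0.50 in TAM against PEC with LPS. Vps4a, the ATPase that takes ESCRT apart, read 1.12 and 0.54 and then -0.86 and -0.69 in the same comparisons. Its paralogue Vps4b read 0.51 and 0.11, then -0.24 and 0.62. Vps50, of an endosomal tether, was -0.74, -1.85, -1.71 and 0.42 untreated and 0.73 and 1.58 with LPS.

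**Figure D3:**
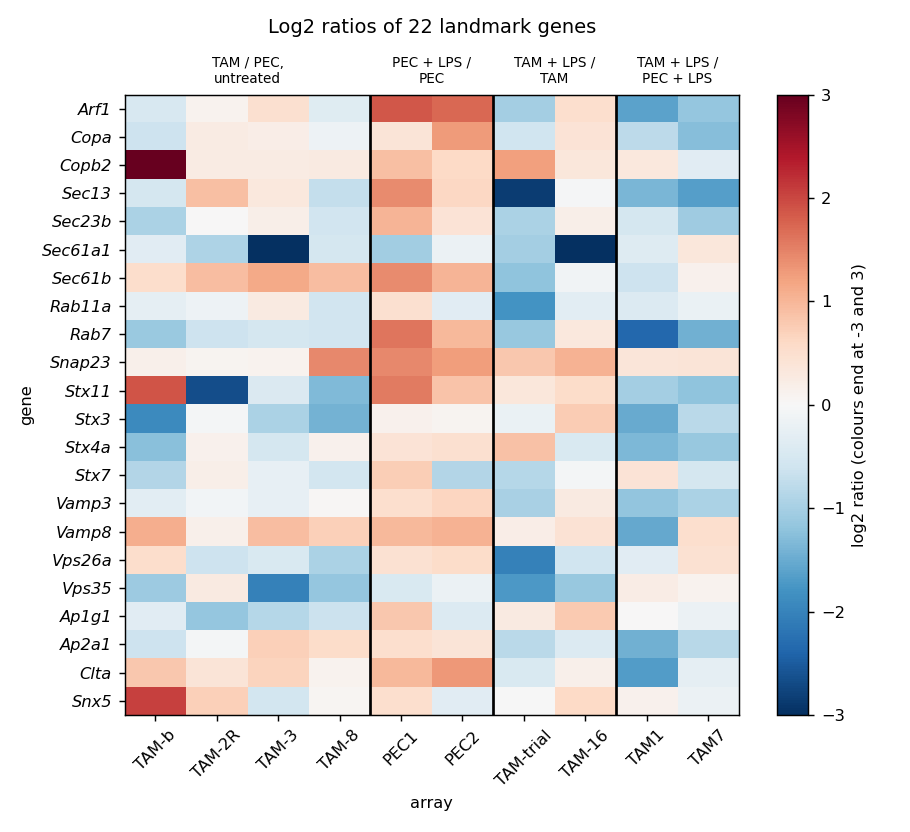
Log2 ratio of the 22 landmark genes (rows, ordered by role) on the 10 arrays (columns, grouped by comparison); red is above 0, blue below, and the colours end at -3 and 3. Arf1, Snap23 and Sec61b are red on both PEC arrays, and Arf1, Sec13 and Rab7 are blue on both arrays of TAM against PEC with LPS.

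Partner genes of the pathway gave the same count of calls as the members, 0 in each list and comparison. The lists held SNARE regulators (13 of 24 measured), Rab regulators (12 of 30), Arf regulators (12 of 33), tethers (15 of 32), ESCRT genes (8 of 16) and endocytic and secretory accessory genes (30 of 49). The smallest limma adjusted p was 0.060, for Igf2r, the mannose 6-phosphate receptor that brings enzymes to lysosomes, at -2.34 in untreated TAM against PEC. Cav1, the caveolin of caveolae, followed at -1.75 (limma adjusted p 0.089). Under LPS in PEC the cargo receptors Tmed2 and Tmed10 of early secretory vesicles stood at 1.55 and 1.43 (limma adjusted p 0.45 and 0.52), and in TAM against PEC with LPS at -1.57 each. Tsg101, of ESCRT, stood at -0.97 untreated and -1.45 with LPS in TAM against PEC (limma adjusted p 0.24 and 0.36).

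Promoter windows from RefSeq (250 bases before to 50 after a transcription start, build GRCm38.p6) existed for 91 of the 113 genes. They are shown for 3 genes chosen after their values were seen: Arf1, with the smallest adjusted p under LPS in PEC, Ap2b1, next to Sec23a in untreated TAM against PEC, and the retromer gene Vps26a. Arf1 and Vps26a have 2 windows each, of which 1 is shown. Capitals mark matches, on either strand, to the motifs CACGTG and TGACGTCA and to an interferon-type repeat, GAAA and again GAAA with any 2 bases between them. The Arf1 window at chr11:59228218-59228517 (minus strand) holds none, that of Ap2b1 at chr11:83302447-83302746 (plus strand) holds TGACGTCA, and that of Vps26a at chr10:62486756-62487055 (minus strand) holds CACGTG at 2 places and the repeat.
Arf1: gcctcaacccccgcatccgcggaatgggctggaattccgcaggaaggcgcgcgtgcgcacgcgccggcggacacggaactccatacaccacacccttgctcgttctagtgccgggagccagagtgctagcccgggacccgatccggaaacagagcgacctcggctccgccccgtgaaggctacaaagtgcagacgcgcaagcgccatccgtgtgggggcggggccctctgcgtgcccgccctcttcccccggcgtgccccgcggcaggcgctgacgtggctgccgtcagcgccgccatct
Ap2b1: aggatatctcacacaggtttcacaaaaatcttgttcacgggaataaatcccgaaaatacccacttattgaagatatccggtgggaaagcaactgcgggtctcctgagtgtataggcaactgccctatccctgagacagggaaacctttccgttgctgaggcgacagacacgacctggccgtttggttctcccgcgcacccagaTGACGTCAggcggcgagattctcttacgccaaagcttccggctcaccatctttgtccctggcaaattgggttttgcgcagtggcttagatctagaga
Vps26a: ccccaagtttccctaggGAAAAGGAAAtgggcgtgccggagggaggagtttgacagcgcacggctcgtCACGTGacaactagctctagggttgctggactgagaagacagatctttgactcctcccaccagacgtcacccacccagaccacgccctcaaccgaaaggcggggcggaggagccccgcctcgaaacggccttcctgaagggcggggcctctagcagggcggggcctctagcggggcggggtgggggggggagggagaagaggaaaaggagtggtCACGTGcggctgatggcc

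Motif matches in these windows were about as frequent as among all genes of the table. CACGTG, known as the core of sites for lysosomal and stress regulators, was in windows of 8.79% of the 91 genes and of 8.09% of all genes. TGACGTCA, the full cyclic AMP response element, was in 3.30% and 2.03%, and the interferon-type repeat in 4.40% and 3.99%. The NF-kB motif was in 3.30% and 5.14%. Matches of different motifs overlapped in at most 2 windows of the table for any pair. A match is a description of the letters only.

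Many of the largest ratios lay on fixed steps, among all features as well as among the genes. On TAM-3 the value 0.077 was shared by 260 features, on TAM-2R -0.069 by 140, on TAM-16 0.005 by 120, on PEC2 0.847 by 80 and on PEC1 0.954 by 69. Features at the log2 of 2 from the shared value numbered 66, 65 and 47 on TAM-3, TAM-2R and TAM-16, where neighbouring values gave 6.2, 8.6 and 8.3. On PEC1 and PEC2 the excess was smaller, with 23 against 16.1 and 25 against 15.5. On TAM1, TAM7, TAM-8, TAM-b and TAM-trial the numbers were near those of neighbouring values, so steps there are weakly supported and matches at large whole numbers can arise without any step. Of the 1260 values of the 126 features, 42 (3.33%; all features 2.74%) lay within 0.0015 of the shared value or the log2 of a whole number up to 64 from it. Of the 30 values beyond 3 in either direction, 16 did.

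**Figure D4:**
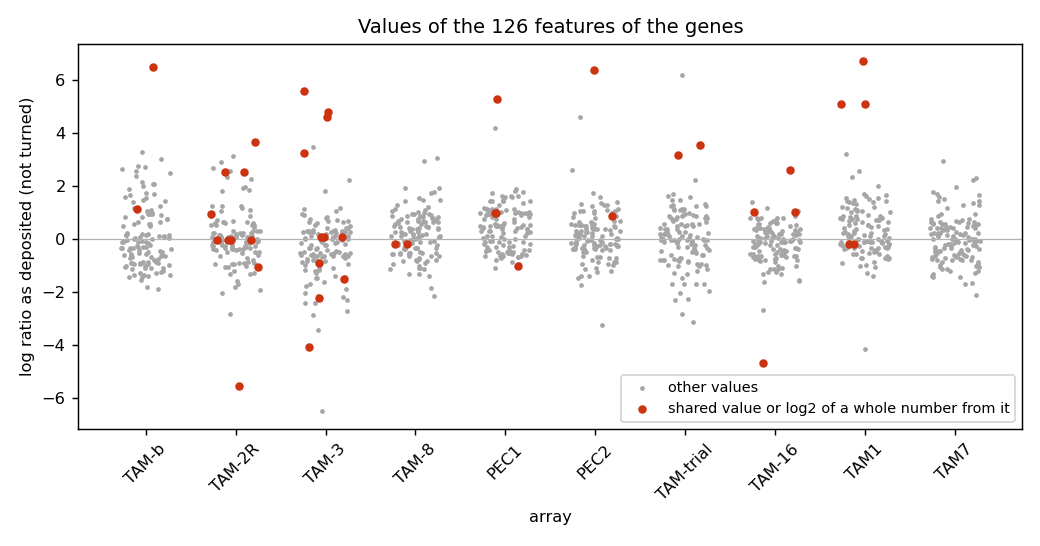
Deposited log ratio, before turning, of the 126 features on each array; red points lie at the array's shared value or the log2 of a whole number from it, grey points do not. Red points make up 16 of the 30 values beyond 3.

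Such values entered the means of several genes named above. They included 4.78 and 5.56 of Sec23a, 5.28 of Rab9, 6.37 of Rab11fip4, -4.70 of Sec61a1 and 2.59 of Rab33a. The -5.07 of Rab9 and of Rab34 also matched a step on TAM1, where the excess of steps was small. With step values left out, an alternative chosen after the data had been seen, Rab34 in TAM against PEC with LPS went from -2.42 to 0.23 on the 1 array left, and Rab11fip4 had no value under LPS in PEC. The values of Arf1, Arf4, Rab7, Snap23, Sec61b and Snx30 were not on steps. Channel intensities were not used here, so whether step values come from dim spots was not tested.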

How the data were processed

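Per array and feature, 1 log ratio was deposited by the authors and is taken as log2; no tool, normalization or dye is named in the labels or headers. The values bear on base 2 because differences between often repeated values were 1 and 1.585, the log2 of 3. Ratios were read as channel 2 over channel 1, and TAM-2R and TAM1, whose channels were exchanged per the labels, were turned. Features of 1 symbol were averaged, giving 8905 genes and features. limma 3.58.1 (lmFit and eBayes) in R 4.3.3 was run on all 10 arrays with 1 mean per comparison (6 residual and 3.841 prior degrees of freedom), two-sided, with Benjamini-Hochberg adjustment and a threshold of 0.05. Standard errors are those of the fit and SDs those of the arrays, whose small number limits the precision. Dim spots could not be filtered. The fit was also run on simulated data with independent normal noise. Those data had no effects of feature position, print or fixed steps, so they do not show how the fit behaves under these.

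The members, lists and roles were chosen with earlier results of these data known. Named genes were, per comparison, the 5 highest and 5 lowest means with 1 sign on every array, plus 22 landmarks; others named were chosen after their values were seen. Alternatives were a loop fit over conditions, a dye term, print as a block, 1 print alone, each comparison's own arrays, the other reading of exchanged arrays, centring and scaling, features singly, a correction for feature position, a filter on low values, leaving out each array, and leaving out step values.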

Additional observations from a re-analysis of the deposited data

Results flagged for a closer look

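Among the 4 arrays of untreated TAM against PEC, 28 genes and 10 medians were examined for a single array far from the rest, and 5 were marked. The limit used would mark about 1 in 20 unselected sets of values by chance. That rate cannot be applied here, since some of the genes were chosen by their means on these same arrays and the medians overlap. Copb2 read 3.28 on TAM-b and 0.24 to 0.26 on the others. The median of the COPI genes was -0.63 on TAM-b and 0.25 to 0.26 on the others, so on that array Copb2 and its 2 partners lay on different sides of 0. Rab7 read -1.12 on TAM-b and -0.61 to -0.53 on the others. Snap23 read 1.44 on TAM-8 and 0.09 to 0.15 on the others. The median of the SNAREs was -0.35 on TAM-3 and 0.12 to 0.16 on the others.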

How the results depend on the processing

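Under every alternative run, 0 of the 113 genes passed the limma adjusted threshold, except in TAM against PEC with LPS, where 1 did in the loop fit (Rab7) and 1 with arrays centred and scaled (Snx30). The median in that comparison, -0.03 as reported, was -0.20 in the loop fit, -0.29 with print as a block, -0.17 within 1 print, 0.12 with the exchanged arrays read the other way and -0.21 after a correction for position; leaving out 1 array gave -0.17 to -0.031. For LPS in TAM the median of -0.15 became -0.047 in the loop fit, -0.043 centred and -0.0211 centred and scaled, and leaving out 1 array gave -0.15 to -0.002. The loop closure median of -0.26 became 0.079 within 1 print and -0.60 with the other reading. With that reading, among the 5 highest and 5 lowest means of TAM against PEC with LPS, values turned to -1.24 (Snx30), 0.46 (Rab7), 0.29 (Snx12) and 1.11 (Ap2a2). Other genes whose TAM1 value lies farther from 0 than that of TAM7, Arf1 among them, turn as well. A dye term turned Rab11fip4 under LPS in TAM to -0.10.

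Counts at an unadjusted limma p under 0.05 moved more. TAM against PEC with LPS (16) gave 27 in the loop fit, 31 centred and scaled, 5 with print as a block and within 1 print, 3 with the other reading, 4 without TAM1 and 10 without TAM7, PEC1 or PEC2. LPS in PEC (10) gave 17 in the loop fit and centred and scaled, 20 on its own arrays, 16 after the position correction, 4 with a dye term, 6 with the other reading, 1 with print as a block or within 1 print, 3 without PEC1 and 5 without PEC2. Untreated TAM against PEC (14) gave 3 within 1 print, 7 with print as a block or the other reading, and 8 on its own arrays or without TAM-b. LPS in TAM (6) gave 1 with print as a block or within 1 print, 2 in the loop fit or without TAM-trial, 3 with a dye term, and 10 without TAM-16. The difference of the LPS responses (8) gave 24 in the loop fit, 3 with print as a block, within 1 print, with the other reading or without TAM-trial, 2 without PEC1 and 15 without TAM-16. The loop closure (5) gave 1 without PEC1 and 3 without TAM1. The causes were not tested. The filter on low values removed 0 features, and the loop fit has no loop closure. No paired analysis was possible because the groups share fewer than 2 replicate numbers. With 2 arrays in 3 comparisons, the spread between arrays limits what can be called.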
